A study of Mus musculus with 6 samples.

Results

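The genes described here carry vitamin A (retinol) from uptake to gene control: the retinol receptor Stra6l, the binding protein Crabp2, the retinol and retinaldehyde enzymes Rdh10 and Dhrs3, the retinaldehyde dehydrogenases Aldh1a1, Aldh1a2 and Aldh1a3, and the nuclear receptors Rarb and Rarg. They were taken by symbol, and all 9 were found among the 24498 genes of the deposited count table. RNA was sequenced in bulk from epithelial cells sorted from the prostates of male mice by a lineage marker. In the Nkx mice an inducible CreER(T2) recombinase under Nkx was joined to the EYFP reporter Gt(ROSA)26Sortm1(EYFP)Cos, and in the Clu mice CreER(T2) under Clu, the gene of clusterin, was joined to the tdTomato reporter Gt(ROSA)26Sortm14(CAG-tdTomato)Hze. The 3 groups hold 2 libraries each. The groups named Nkx intact and Clu intact, also called intact Nkx and intact Clu cells, came from males left with their testes, and Nkx castrate, or castrate Nkx cells, from males castrated at 8 weeks of age. All mice were between 7 and 13 weeks old over the study, and tissue was taken 4 weeks after castration or at the matched time. Every group, the intact ones included, carries a recombinase and a reporter, and Clu and Nkx cells differ in both. The labels give no time of induction and do not say whether libraries of a group are separate animals or pools, so each p-value weighs a difference against the scatter of libraries only, and that scatter may be technical.

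Retinol is bound in blood by a carrier protein and enters cells through membrane receptors. Short-chain dehydrogenases such as Rdh10 oxidise it to retinaldehyde, Dhrs3 reduces retinaldehyde back to retinol, and the Aldh1a enzymes oxidise retinaldehyde irreversibly to retinoic acid. Crabp2 delivers retinoic acid to the nucleus, where retinoic acid receptors paired with retinoid X receptors bind direct repeats in DNA, and Cyp26 enzymes break the acid down. Rarb and Cyp26a1 are textbook direct targets, each known to answer to retinoic acid through a direct repeat near its start. In the prostate, vitamin A deficiency is known to replace the secretory epithelium by a squamous one.

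Promoter windows from RefSeq (build GRCm38.p6, from 250 bases before to 50 after the start, written 5′ to 3′ along the gene) were at hand for 6 of the 9 genes. Rarb and Cyp26a1, the breakdown enzyme, are shown because their windows hold the receptor's response element, in capitals, and Aldh1a1 and Stra6l because theirs were the largest shifts between castrate and intact Nkx cells. The element was searched on both strands as a pair of half-sites, each of the form AGGTCA, the form AGTTCA, the form GGGTCA or the form GGTTCA, in direct repeat with a spacer of 5 bases. For Aldh1a1 and Stra6l the most downstream of their windows is shown. In that of Aldh1a1 the capitals mark a single half-site, on the opposite strand, and that of Stra6l held none. The other Aldh1a1 window (chr19:20492333-20492632) held no half-site, nor did the other Stra6l window.
Rarb, chr14:16575427-16575726, - strand: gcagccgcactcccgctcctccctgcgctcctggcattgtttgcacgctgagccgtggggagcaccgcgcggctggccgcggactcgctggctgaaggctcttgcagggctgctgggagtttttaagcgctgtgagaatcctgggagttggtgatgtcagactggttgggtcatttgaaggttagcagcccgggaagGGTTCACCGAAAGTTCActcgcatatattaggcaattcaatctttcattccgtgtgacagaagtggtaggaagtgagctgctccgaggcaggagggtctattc
Cyp26a1, chr19:37697558-37697857, + strand: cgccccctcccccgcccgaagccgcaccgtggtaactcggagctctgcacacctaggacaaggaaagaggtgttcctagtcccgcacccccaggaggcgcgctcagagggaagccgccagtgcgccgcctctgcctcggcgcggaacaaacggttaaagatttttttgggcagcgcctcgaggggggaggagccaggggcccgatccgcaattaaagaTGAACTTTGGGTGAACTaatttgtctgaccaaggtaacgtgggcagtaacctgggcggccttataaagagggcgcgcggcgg
Aldh1a1, chr19:20601718-20602017, + strand: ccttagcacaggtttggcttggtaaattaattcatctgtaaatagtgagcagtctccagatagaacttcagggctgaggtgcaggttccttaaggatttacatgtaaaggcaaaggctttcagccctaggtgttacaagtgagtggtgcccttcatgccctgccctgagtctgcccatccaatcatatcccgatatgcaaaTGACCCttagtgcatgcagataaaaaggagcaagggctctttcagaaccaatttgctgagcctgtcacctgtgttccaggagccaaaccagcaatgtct
Stra6l, chr4:45848697-45848996, + strand: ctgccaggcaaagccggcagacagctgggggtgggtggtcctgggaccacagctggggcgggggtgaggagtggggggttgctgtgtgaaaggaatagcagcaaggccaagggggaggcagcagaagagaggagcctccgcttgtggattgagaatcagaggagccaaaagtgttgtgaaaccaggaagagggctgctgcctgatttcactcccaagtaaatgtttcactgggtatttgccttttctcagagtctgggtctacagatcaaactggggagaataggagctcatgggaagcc
The repeat begins 53 bases before the start of Rarb and 32 bases before that of Cyp26a1, where it lies on the opposite strand. Of all 32851 promoter windows, 32 (0.0974%) held such a repeat, against 1 of the 11 windows of these genes. A single half-site is common and stood in 43.7% of all windows. A match describes letters and no binding was measured.

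Counts assigned to genes lay between 10220118 and 17412874 per library, and 1 count was worth 0.0561 to 0.0988 CPM (the TMM-scaled count rate of edgeR). Low counts were mostly even: of the genes with 1 to 10 counts, 76.9% to 83.9% per library had an even count, so single counts may not be independent molecules and counting limits here may be too narrow. Clu, the driver of the Clu line, was at 1871 ± 89.5 CPM (SD, n = 2) in intact Clu cells, 783 ± 86.5 CPM in castrate Nkx cells and 284 ± 55.1 CPM in intact Nkx cells. The summed markers of 7 basal genes were at 4745 and 4961 CPM in intact Nkx cells. They were at 4764 and 2847 CPM in castrate Nkx cells, and 2740 and 2915 CPM in intact Clu cells. Among them Krt15 lay between 981 and 1299 CPM in all libraries. Each other member was lower in both intact Clu libraries than in both intact Nkx libraries, Krt5 for example at 61.8 and 99.2 against 399 and 393 CPM. Trp63 also differed between the Nkx groups. It was at 249 and 238 CPM in intact Nkx cells, 61.5 and 34.7 CPM in castrate Nkx cells, and 13.2 and 24.65 CPM in intact Clu cells. The summed markers of 12 fibroblast and smooth muscle genes (580 to 2375 CPM) were present in all 6 libraries although the sort aimed at marked epithelium. The library Nkx castrate 1 had the highest sum of those 12 genes (2375 CPM against 580 to 1093 CPM elsewhere), called the fibroblast and smooth muscle sum below. Members of that list went opposite ways. The smooth muscle gene Myh11 was at 923 CPM there, against 44.8 to 250 CPM elsewhere. The collagen gene Col1a1 was at 46.3 CPM there, against 72.8 to 82.1 CPM in the intact groups. Nkx castrate 1 also held the most leukocyte RNA (10 markers, 439 CPM against 39.9 to 192 CPM). Summed over 8 genes, endothelial markers stood at 866 and 350 CPM in intact Clu cells, 328 and 44.5 CPM in castrate Nkx cells, and 51.7 and 30.7 CPM in intact Nkx cells. In bulk RNA, fewer cells of a type and less RNA per cell cannot be told apart.

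Groups were compared pairwise by the quasi-likelihood test of edgeR, with p-values adjusted by the Benjamini-Hochberg method over all 13846 tested genes, and a gene was called at an adjusted p under 0.05. The 3 comparisons share their libraries in pairs. Of the 9 retinoid genes, all of which were tested, 1 rose (Stra6l) and 1 fell (Aldh1a1) in castrate Nkx cells against intact Nkx cells, where 8.61% of all tested genes were called, 4.02% higher and 4.59% lower. Of the same 9, 1 was higher (Dhrs3) in intact Clu than in intact Nkx cells and 1 lower (Aldh1a1), with 11.3% of all genes called, 6.29% higher and 5% lower. Between intact Clu and castrate Nkx cells, 2 were higher in the Clu cells (Aldh1a1 and Dhrs3) and 2 lower (Stra6l and Aldh1a2), with 16.9% of all genes called, 8.82% higher and 8.1% lower. The median log2 fold change of the 9 was 0.13, 0.09 and 0.07 in that order, against 0.05, -0.01 and -0.00 over all tested genes.

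**Figure D1:**
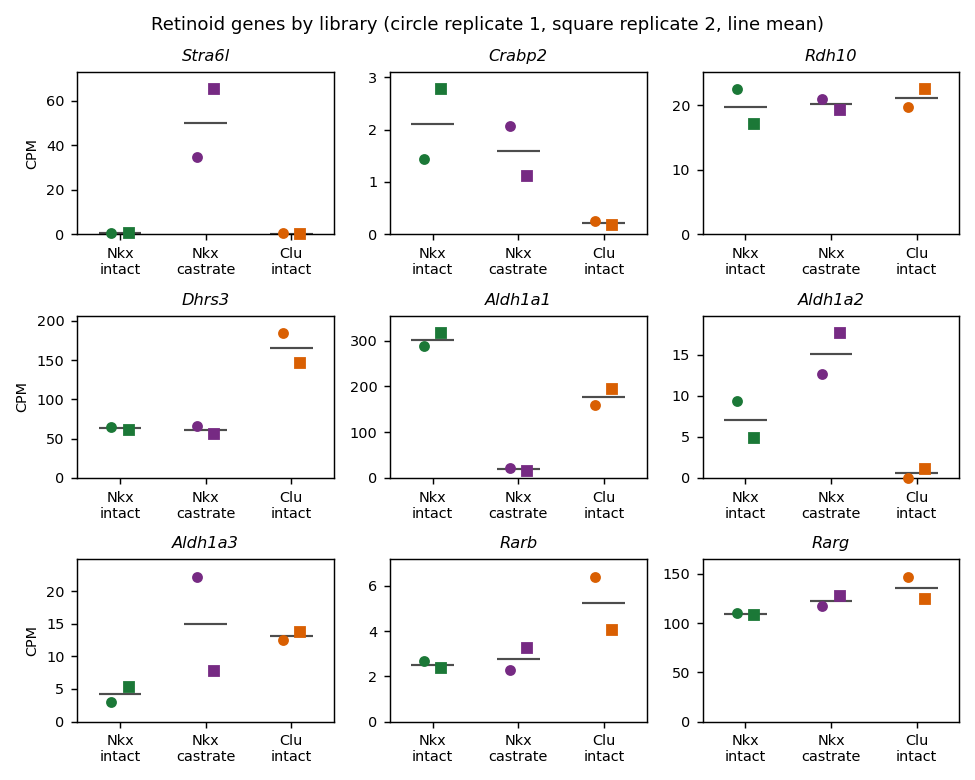
CPM of the 9 retinoid genes (vertical axes, linear from 0, each gene on its own scale) in the 2 libraries of each group, with the group mean as a line. Stra6l stands at 34.8 and 65.1 CPM in Nkx castrate and under 1 CPM elsewhere, Aldh1a1 is lowest in Nkx castrate, and Dhrs3 is highest in Clu intact.

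**Figure D2:**
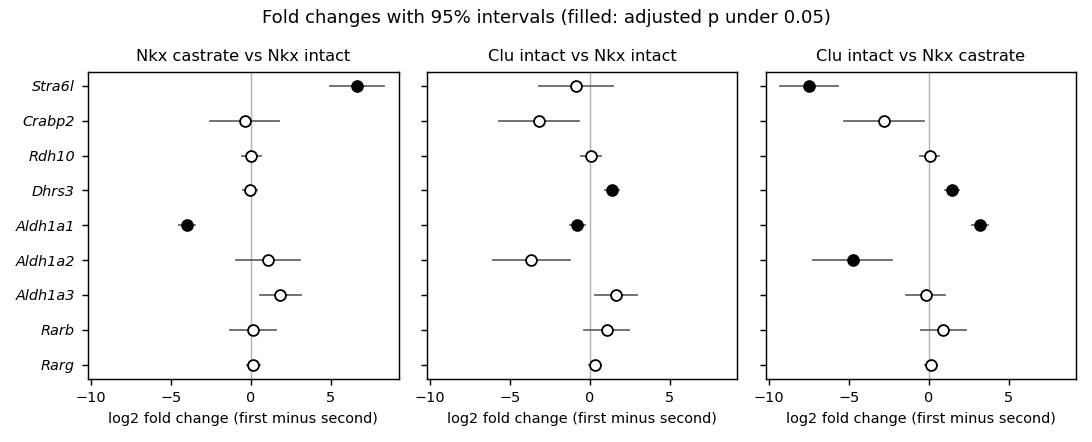
Log2 fold changes (horizontal axis, first-named group minus second) of the 9 genes with their 95% intervals from edgeR's quasi-likelihood fit, in the 3 comparisons. Filled points passed an adjusted p under 0.05, and the widest bars in each comparison belong to Crabp2, Aldh1a2 and Stra6l.

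Stra6l, a membrane receptor for the retinol carrier protein related to Stra6, appeared in castrate Nkx cells alone at more than trace level. Its libraries held 34.8 and 65.1 CPM in castrate Nkx cells (620 and 881 counts), 0.574 and 0.395 CPM in intact Nkx cells (6 and 4 counts), and 0.506 and 0 CPM in intact Clu cells (6 and 0 counts). Both castrate libraries stood far above all 4 others, whose ranges overlapped. A count of 0 in Clu intact 2 allows up to 0.282 CPM (3 counts). The gene had enough counts to be tested only through the castrate Nkx libraries, where it was high. Stra6l rose 101-fold with castration (log2 fold change 6.66, SE 0.74; edgeR adjusted p = 0.00249), and it was 182-fold lower in intact Clu cells than in castrate Nkx cells (log2 fold change -7.51, SE 0.79; edgeR adjusted p = 0.00106). Between intact Clu cells and intact Nkx cells the log2 fold change was -0.85 with a 95% interval from -3.19 to 1.48 and no call (edgeR adjusted p = 0.649). Without Nkx intact 2 the castration call was lost (log2 fold change 6.42, edgeR adjusted p = 0.0559). The fold against intact Clu cells was -12.28 on the log2 scale without Clu intact 1, which leaves no count in that group, and -6.57 without Clu intact 2. Without Nkx castrate 1, the library with the highest fibroblast and smooth muscle sum, the log2 fold change with castration was 7.04. The 5 urothelial markers also summed higher in castrate Nkx cells, at 352 and 534 CPM against 123 and 154 CPM in intact Nkx cells, and stood at 353 and 393 CPM in intact Clu cells. Among them Upk3a, a uroplakin, was at 145.6 and 196.9 CPM in castrate Nkx cells and between 0 and 0.574 CPM in the remaining 4 libraries. Upk2, another of them, was at 0.561 and 2.37 CPM in castrate Nkx cells and highest in intact Clu cells, at 20.6 and 23.5 CPM. The part of these markers in the Stra6l result was not tested.

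Stra6, the better known retinol receptor, had the opposite placement. It was at 61.0 and 77.0 CPM in intact Clu cells, 13.0 and 14.1 CPM in intact Nkx cells, and 9.54 and 5.54 CPM in castrate Nkx cells. Both Clu libraries lay above all Nkx libraries. Stra6 was 5.08-fold higher in intact Clu cells than in intact Nkx cells (log2 fold change 2.35, SE 0.31; edgeR adjusted p = 0.00366) and 9.10-fold higher than in castrate Nkx cells (log2 fold change 3.19, SE 0.32; edgeR adjusted p = 0.000884). The first of these calls was lost without Nkx intact 1 (edgeR adjusted p = 0.0526). The log2 fold change of Stra6 with castration was -0.84 (SE 0.31), not called (edgeR adjusted p = 0.147), and -1.29 and called without Nkx castrate 1 (edgeR adjusted p = 0.0106). Per kilobase of exon, Stra6l averaged 5.22 ± 2.24 CPM (SD, n = 2) in castrate Nkx cells and Stra6 1.29 ± 0.485 CPM, while in intact Clu cells Stra6 averaged 11.8 ± 1.95 CPM and Stra6l 0.0265 ± 0.0374 CPM. The higher-level receptor gene of the pair thus differed between these groups, and the part of the endothelial markers given above in the Stra6 result was not tested.

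Crabp2, which carries retinoic acid to its receptor, was low in every library and near the detection limit in Clu cells. It was at 1.43 and 2.77 CPM in intact Nkx cells, 2.08 and 1.11 CPM in castrate Nkx cells (15 to 37 counts per Nkx library), and 0.253 and 0.188 CPM in intact Clu cells (3 and 2 counts). Both Clu libraries lay below all 4 Nkx libraries, whose groups overlapped. The log2 fold change of intact Clu cells was -3.19 (SE 1.09) against intact Nkx cells and -2.80 (SE 1.08) against castrate Nkx cells, neither called (edgeR adjusted p = 0.109 and 0.116). DESeq2 called the first of them (adjusted p = 0.0489).

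Rdh10, the main enzyme of the first oxidation step, had no call in any comparison or alternative. Its libraries held 22.5 and 17.2 CPM in intact Nkx cells, 21.0 and 19.3 CPM in castrate Nkx cells, and 19.7 and 22.5 CPM in intact Clu cells. All 3 groups overlapped. The log2 fold changes were 0.02, 0.09 and 0.07 in the order castrate Nkx cells against intact Nkx cells, intact Clu cells against intact Nkx cells and intact Clu cells against castrate Nkx cells. Their 95% intervals ran from -0.58 to 0.63, from -0.52 to 0.70 and from -0.54 to 0.67, so differences within those bounds could not be told from none with 2 libraries a group.

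Dhrs3, which turns retinaldehyde back into retinol, was higher in Clu cells and had no call with castration. Its libraries held 184.5 and 147 CPM in intact Clu cells, 64.8 and 61.6 CPM in intact Nkx cells, and 65.6 and 55.8 CPM in castrate Nkx cells. Both Clu libraries stood above all Nkx libraries, and the Nkx groups overlapped. Dhrs3 was 2.62-fold higher in intact Clu cells than in intact Nkx cells (log2 fold change 1.39, SE 0.19; edgeR adjusted p = 0.00435) and 2.73-fold higher than in castrate Nkx cells (log2 fold change 1.45, SE 0.19; edgeR adjusted p = 0.00269). Leaving out either intact Nkx library ended the first call (edgeR adjusted p = 0.0555 and 0.0636, log2 fold changes 1.44 and 1.36). The 7 proximal luminal markers also summed highest in intact Clu cells (5703 and 6376 CPM, against 415 to 1204 CPM in the Nkx libraries). They include Clu, the driver of the Clu line, so the sum is partly set by the sort. Clu gave 1808 and 1934 CPM of it in intact Clu cells and most of each Nkx sum. Each other member was also highest in intact Clu cells, Psca for example at 1344 and 1385 CPM against 1.92 to 10.5 CPM. The part of these markers in the Dhrs3 result was not tested. With castration the log2 fold change was -0.06, with a 95% interval from -0.50 to 0.38.

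Aldh1a1, the most abundant retinaldehyde dehydrogenase of the intact cells, fell with castration. It was at 288 and 316 CPM in intact Nkx cells, 21.3 and 16.3 CPM in castrate Nkx cells, and 160.0 and 194 CPM in intact Clu cells. The 3 groups did not overlap, with intact Nkx cells highest and castrate Nkx cells lowest. The fall was 16.1-fold (log2 fold change -4.01, SE 0.22; edgeR adjusted p = 0.000249) and was called in all 14 alternatives, where the log2 fold change lay between -4.21 and -3.83. The level in intact Clu cells was 9.42-fold above castrate Nkx cells (log2 fold change 3.24, SE 0.21; edgeR adjusted p = 0.000209) and 1.71-fold below intact Nkx cells (log2 fold change -0.77, SE 0.20; edgeR adjusted p = 0.0433). The last of these calls was lost without either intact Nkx library or either intact Clu library, with edgeR adjusted p between 0.157 and 0.325. The 7 distal luminal markers also summed lower in castrate Nkx cells, at 4462 and 5373 CPM against 16384 and 20567 CPM in intact Nkx cells and 9993 and 8112 CPM in intact Clu cells, and their part in the Aldh1a1 result was not tested. Members of that list went opposite ways between the Nkx groups. The secretory genes Pbsn (5393 and 6937 CPM in intact, 106 and 112 CPM in castrate Nkx cells) and Tgm4 (8396 and 11250 against 4.21 and 1.85 CPM) were lower in castrate Nkx cells, while the luminal keratins Krt8 (792 and 705 against 2180 and 2558 CPM) and Krt18 (1168 and 942 against 2132 and 2590 CPM) were higher and made up most of the castrate sum. The 5 seminal vesicle markers summed to 78.8 and 140.1 CPM in intact Nkx cells, 0.112 and 0 CPM in castrate Nkx cells, and 4.98 and 0 CPM in intact Clu cells, and their part was not tested either.

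Aldh1a2, the enzyme of embryonic retinoic acid supply, was low in all groups and lowest in Clu cells. Its libraries held 9.37 and 4.84 CPM in intact Nkx cells, 12.6 and 17.7 CPM in castrate Nkx cells, and 0 and 1.13 CPM in intact Clu cells (0 and 12 counts). Both Clu libraries lay below all Nkx libraries. Aldh1a2 was lower in intact Clu cells than in castrate Nkx cells (log2 fold change -4.76, SE 1.07; edgeR adjusted p = 0.0202). That fold was -3.71 without Clu intact 1 and -10.59 without Clu intact 2, which leaves no count in the group, and the call was lost without Nkx intact 1 (edgeR adjusted p = 0.0516) and with only the groups compared in the fit (edgeR adjusted p = 0.0602). Against intact Nkx cells the log2 fold change of intact Clu cells was -3.67 (SE 1.04), not called by edgeR (adjusted p = 0.0632) and called by DESeq2 (adjusted p = 0.00153). It was called in 8 of 14 alternatives, and its log2 fold change was -2.63 without Clu intact 1 and -9.51 without Clu intact 2, which leaves no count in the group. The castrate and intact Nkx libraries did not overlap, but the log2 fold change of 1.09 (SE 0.87) was not called (edgeR adjusted p = 0.505). Of the mesothelial markers, Msln and Lrrn4 were at 0 in both intact Nkx libraries and below 1 CPM in castrate Nkx cells, and Msln was at 24.3 and 29.0 CPM in intact Clu cells. Wt1, of the same list, was at 3.73 and 1.78 CPM in intact Nkx cells, 19.9 and 3.55 CPM in castrate Nkx cells, and 2.19 and 2.26 CPM in intact Clu cells. All 5 mesothelial markers summed to 491 and 604 CPM in intact Nkx cells, 1876 and 2886 CPM in castrate Nkx cells, and 1821 and 2196 CPM in intact Clu cells, of which the broad epithelial keratin Krt19 gave most, and their part in the result was not tested.

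Aldh1a3, which makes retinoic acid in several epithelia, differed between its castrate libraries. It was at 3.06 and 5.33 CPM in intact Nkx cells, 22.2 and 7.76 CPM in castrate Nkx cells, and 12.6 and 13.7 CPM in intact Clu cells. Both intact Nkx libraries lay below the 4 others. The log2 fold change was 1.84 (SE 0.56) with castration and 1.65 (SE 0.56) in intact Clu cells against intact Nkx cells, neither called (edgeR adjusted p = 0.0894 and 0.106), while DESeq2 called both (adjusted p = 0.0229 and 0.0468). The higher castrate library was Nkx castrate 1, with the highest fibroblast and smooth muscle sum, whose part was not tested. With castration the log2 fold change was 0.89 without that library (edgeR adjusted p = 0.240) and 2.40 without Nkx castrate 2 (edgeR adjusted p = 0.00258). Against castrate Nkx cells, intact Clu cells had a log2 fold change of -0.19, and of 0.76 without Nkx castrate 1, with no call.

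Compared per kilobase of exon (all annotated exons merged, GENCODE M21), the make-up of the Aldh1a family differed by group. The size of each share depends on these annotated lengths. Aldh1a1 gave 92.4% and 95.1% of the summed level in intact Nkx cells and 92.2% and 91.9% in intact Clu cells, but 29.3% and 25.8% in castrate Nkx cells. There Aldh1a2 gave 37.9% and 61.1% and Aldh1a3 32.7% and 13.2%. The summed level was 63.1 and 67.4 CPM per kilobase in intact Nkx cells, 14.7 and 12.8 in castrate Nkx cells, and 35.1 and 42.9 in intact Clu cells. The 3 groups did not overlap in this sum. Between the Nkx groups the level of Aldh1a2 per kilobase was 3.14 ± 1.42 CPM in intact Nkx cells and 6.69 ± 1.57 CPM in castrate Nkx cells (SD, n = 2), while Aldh1a1 was at 61.2 ± 4.10 and 3.80 ± 0.717 CPM.

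Rarb, the receptor whose promoter holds the repeat shown above, was low and had no call in any comparison. Its libraries held 2.68 and 2.37 CPM in intact Nkx cells, 2.30 and 3.25 CPM in castrate Nkx cells, and 6.41 and 4.04 CPM in intact Clu cells. Both Clu libraries lay above all Nkx libraries. The log2 fold change of intact Clu cells was 1.05 (95% interval -0.39 to 2.48) against intact Nkx cells and 0.91 (-0.50 to 2.33) against castrate Nkx cells, with edgeR adjusted p = 0.336 and 0.345. Top2b overlaps Rarb on the opposite strand in GENCODE M21, and the strand setting of the count is not given in the sources used here. Cyp26a1, the other gene whose window holds the repeat, had 0 counts in every library, which allows 0.168 to 0.296 CPM per library (3 counts).

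Rarg, the retinoic acid receptor of many epithelia, had no call in any comparison. It was at 111 and 108 CPM in intact Nkx cells, 117 and 128 CPM in castrate Nkx cells, and 147 and 125 CPM in intact Clu cells. Both intact Nkx libraries lay lowest and the other groups overlapped. The log2 fold change was 0.16 with castration (95% interval -0.23 to 0.55), 0.32 in intact Clu cells against intact Nkx cells (-0.07 to 0.71) and 0.15 against castrate Nkx cells (-0.23 to 0.54), with no call in any alternative. Rara, the third receptor, differed. It was at 59.8 and 31.4 CPM in intact Nkx cells, 186 and 212 CPM in castrate Nkx cells, and 72.1 and 53.4 CPM in intact Clu cells. Rara rose 4.36-fold with castration (log2 fold change 2.12, SE 0.31; edgeR adjusted p = 0.00695) and was 3.17-fold lower in intact Clu cells than in castrate Nkx cells (log2 fold change -1.66, SE 0.31; edgeR adjusted p = 0.00997). The first call was lost without Nkx intact 2 (log2 fold change 1.73, edgeR adjusted p = 0.0567), the second without Clu intact 2 (edgeR adjusted p = 0.0960). Without Nkx castrate 1 the rise was 2.22 on the log2 scale (edgeR adjusted p = 0.000263).

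By level per kilobase, Rarg gave 64.6% and 76.8% of the 3 retinoic acid receptors in intact Nkx cells and 66.1% and 69.2% in intact Clu cells, and Rara 60.4% and 61.4% in castrate Nkx cells. Rarb gave 0.621% to 2.33% in all libraries. In castrate Nkx cells the leading receptor gene was thus Rara, at 45.6 ± 4.31 CPM per kilobase against 28.7 ± 1.75 for Rarg (SD, n = 2), and in the intact groups it was Rarg. Among the retinoid X receptors, the partners of these proteins, Rxra gave 58.0% and 63.9% in intact Nkx cells, 37.9% and 34.3% in castrate Nkx cells, and 65.3% and 62.5% in intact Clu cells.

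**Figure D3:**
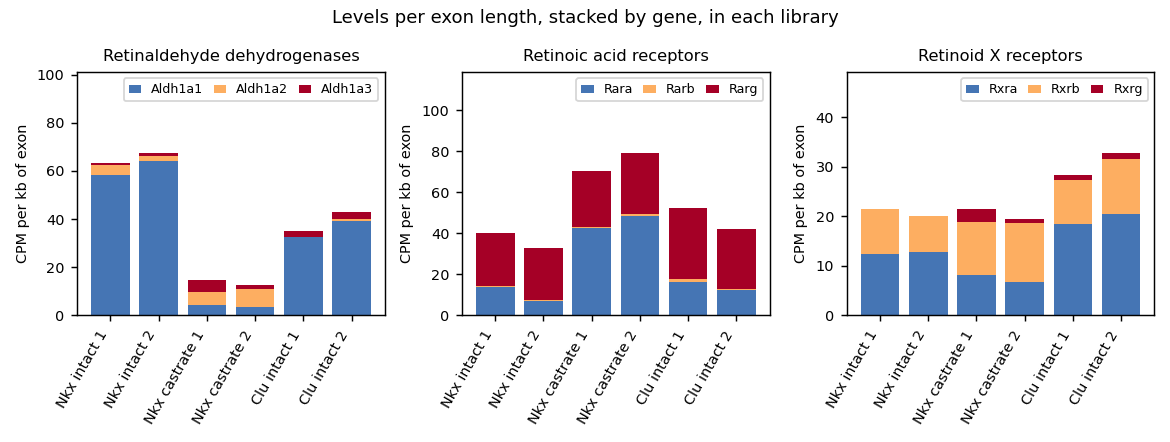
CPM per kilobase of exon (vertical axes, linear from 0) of the Aldh1a enzymes, the retinoic acid receptors and the retinoid X receptors, stacked by gene in each of the 6 libraries. Aldh1a1 makes up most of the first stack in the intact groups and 29.3% and 25.8% of it in Nkx castrate, where Rara is the largest part of the second stack.

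Within a group, levels per kilobase ranked the 9 genes over a wide range. In intact Nkx cells Aldh1a1 led at 61.2 ± 4.10 CPM per kilobase (SD, n = 2), followed by Rarg at 25.6 ± 0.468 and Dhrs3 at 21.6 ± 0.755. Rdh10 (4.77 ± 0.900) and Aldh1a2 (3.14 ± 1.42) came next, and their difference was only slightly larger than the SD of Aldh1a2. In castrate Nkx cells Rarg led at 28.7 ± 1.75, before Dhrs3 at 20.7 ± 2.35, Aldh1a2 at 6.69 ± 1.57, Stra6l at 5.22 ± 2.24, Rdh10 at 4.85 ± 0.298, Aldh1a1 at 3.80 ± 0.717 and Aldh1a3 at 3.25 ± 2.21. Of these, Aldh1a2 and Stra6l, Stra6l and Rdh10, and Aldh1a1 and Aldh1a3 were neighbours that differed by less than the larger of their SDs. In intact Clu cells Dhrs3 led at 56.6 ± 9.15, before Aldh1a1 at 35.9 ± 4.94 and Rarg at 31.9 ± 3.73, the last pair of which differed by less than the SD of Aldh1a1. The largest level of the set was thus an oxidising enzyme in intact Nkx cells and the reducing enzyme Dhrs3 in intact Clu cells.

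Of 57 other genes of retinoid storage, conversion, breakdown, reception and response, all were in the table and 42 were tested. With castration 5 rose and 2 fell, while intact Clu cells had 5 higher and 2 lower than intact Nkx cells, and 6 higher and 7 lower than castrate Nkx cells. These are 16.7%, 16.7% and 31.0% of those tested, against 8.61%, 11.3% and 16.9% of all genes. The median log2 fold change of the 42 was 0.11, 0.19 and -0.08 in the same order.

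Among the enzymes, 2 alcohol dehydrogenases that can oxidise retinol stood highest in Clu cells. Adh7 was at 8.27 and 6.87 CPM in intact Clu cells, with 171 counts over the group, against 4 counts in castrate Nkx cells and 3 in intact Nkx cells. Adh7 had enough counts to be tested only through the intact Clu libraries, where it was high. It was higher in intact Clu cells than in castrate Nkx cells (log2 fold change 5.85, SE 1.15; edgeR adjusted p = 0.0124) and than in intact Nkx cells (edgeR adjusted p = 0.0212), where the ratio was 52.2 with a 95% counting interval from 17.6 to 255. All 4 castrate counts were in Nkx castrate 1, and the log2 fold change against castrate Nkx cells was 9.42 without that library, which leaves no count in the group, and 5.02 without Nkx castrate 2. Both calls were lost without either intact Clu library, and the second also without either intact Nkx library, with edgeR adjusted p up to 0.176. Adh1 was at 196 and 205 CPM in intact Clu cells, 26.9 and 77.1 CPM in castrate Nkx cells, and 81.1 and 81.5 CPM in intact Nkx cells. In intact Clu cells against intact Nkx cells it was not called (log2 fold change 1.30, SE 0.41; edgeR adjusted p = 0.0859). It was 3.87-fold higher in intact Clu cells than in castrate Nkx cells (edgeR adjusted p = 0.0169), a log2 fold change of 1.95 that moved to 1.38 when Nkx castrate 1 was left out and to 2.91 when Nkx castrate 2 was. That call was lost without Nkx intact 2, without either intact Clu library and with only the groups compared in the fit (edgeR adjusted p up to 0.0733). Rdh12, a retinaldehyde reductase known from photoreceptors, fell with castration from 4.69 and 6.91 CPM to 0.112 and 0.148 CPM (2 counts each; log2 fold change -5.39, SE 1.29; edgeR adjusted p = 0.0421). That call was lost without either intact Nkx library (edgeR adjusted p = 0.149 and 0.238).

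Cyp2s1, a cytochrome P450 that can oxidise retinoic acid, was low in Clu cells in every library. It was at 4.05 and 3.95 CPM in intact Clu cells, 36.0 and 33.1 CPM in intact Nkx cells, and 48.8 and 54.0 CPM in castrate Nkx cells. The level in intact Clu cells was 8.61-fold below intact Nkx cells (log2 fold change -3.11, SE 0.24; edgeR adjusted p = 0.000512) and 12.8-fold below castrate Nkx cells (log2 fold change -3.68, SE 0.24; edgeR adjusted p = 0.000209), called in all 14 alternatives. Cyp26b1, another breakdown enzyme, was at 55.8 CPM in Nkx intact 1 and from 0.591 to 4.74 CPM in the remaining 5, with no call (edgeR adjusted p = 0.116 and 0.0983 against intact Nkx cells). Its log2 fold changes against intact Nkx cells, -3.54 with castration and -3.63 in intact Clu cells, were -0.90 and -0.95 without that library.

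Lpl, a lipase that also helps cells take up retinyl esters from lipoproteins, rose 6.08-fold with castration, from 18.3 and 15.8 CPM to 61.5 and 145.9 CPM (log2 fold change 2.60, SE 0.40; edgeR adjusted p = 0.00789). In intact Clu cells it was at 27.2 and 23.3 CPM, 4.10-fold below castrate Nkx cells (edgeR adjusted p = 0.0107). The castration call was lost without either intact Nkx library (edgeR adjusted p = 0.0808 and 0.113), and its log2 fold change was 1.84 without Nkx castrate 2. The call against intact Clu cells was lost without either intact Clu library (edgeR adjusted p = 0.0540 and 0.0927), and its log2 fold change of -2.04 was -1.27 without Nkx castrate 2. Lrat, which stores retinol as esters, had 18 counts in Nkx castrate 1, 18 and 10 in intact Clu cells and 0 in the other 3 libraries, and was not called.

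Rxra was 2.62-fold higher in intact Clu cells, at 101 and 112 CPM, than in castrate Nkx cells, at 44.6 and 36.6 CPM (log2 fold change 1.39, SE 0.19; edgeR adjusted p = 0.00305). In intact Clu cells against intact Nkx cells it was not called (log2 fold change 0.62, SE 0.19; edgeR adjusted p = 0.0753). It fell 1.70-fold with castration from 67.9 and 70.2 CPM (edgeR adjusted p = 0.0468), a call that held in 7 of 14 alternatives. Rxrb ranged from 28.8 to 47.8 CPM and was not called. Rxrg had 0 counts in intact Nkx cells and was at 6.01 and 1.92 CPM in castrate Nkx cells and 2.02 and 2.63 CPM in intact Clu cells. It was at least 27.2-fold higher in castrate Nkx cells and at least 16.0-fold higher in intact Clu cells, against a floor of 3 counts over the 2 intact Nkx libraries (edgeR adjusted p = 0.0235 and 0.0274). The first limit was 13.2-fold without Nkx castrate 1, which had the highest fibroblast and smooth muscle sum, whose part was not tested. It was 41.2-fold without Nkx castrate 2, and 13.4-fold and 13.8-fold without Nkx intact 1 and Nkx intact 2. The second was 7.86-fold and 8.12-fold without Nkx intact 1 and Nkx intact 2. The first call held in 9 and the second in 10 of 14 alternatives, and both were lost when any 1 intact Nkx or intact Clu library was left out (edgeR adjusted p up to 0.131).

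Among genes known to answer to retinoic acid in other cells, Zfp703, a transcriptional repressor, rose 2.68-fold with castration, from 63.1 and 55.9 CPM to 132 and 187 CPM (log2 fold change 1.42, SE 0.24; edgeR adjusted p = 0.0110). It was 2.24-fold lower in intact Clu cells, at 81.8 and 60.7 CPM, than in castrate Nkx cells (edgeR adjusted p = 0.0139). The first call was lost without either intact Nkx library (edgeR adjusted p = 0.0943 and 0.142), the second without Clu intact 2 (edgeR adjusted p = 0.151). Meis2, a homeobox factor, was 3.95-fold higher in intact Clu cells, at 39.3 and 51.3 CPM, than in intact Nkx cells, at 11.8 and 11.2 CPM (log2 fold change 1.98, SE 0.52; edgeR adjusted p = 0.0487), a call that held in 8 of 14 alternatives. In castrate Nkx cells it was at 38.4 and 11.0 CPM, the higher value in Nkx castrate 1. That library had the highest fibroblast and smooth muscle sum and the highest leukocyte sum, and their part was not tested.

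**Figure D4:**
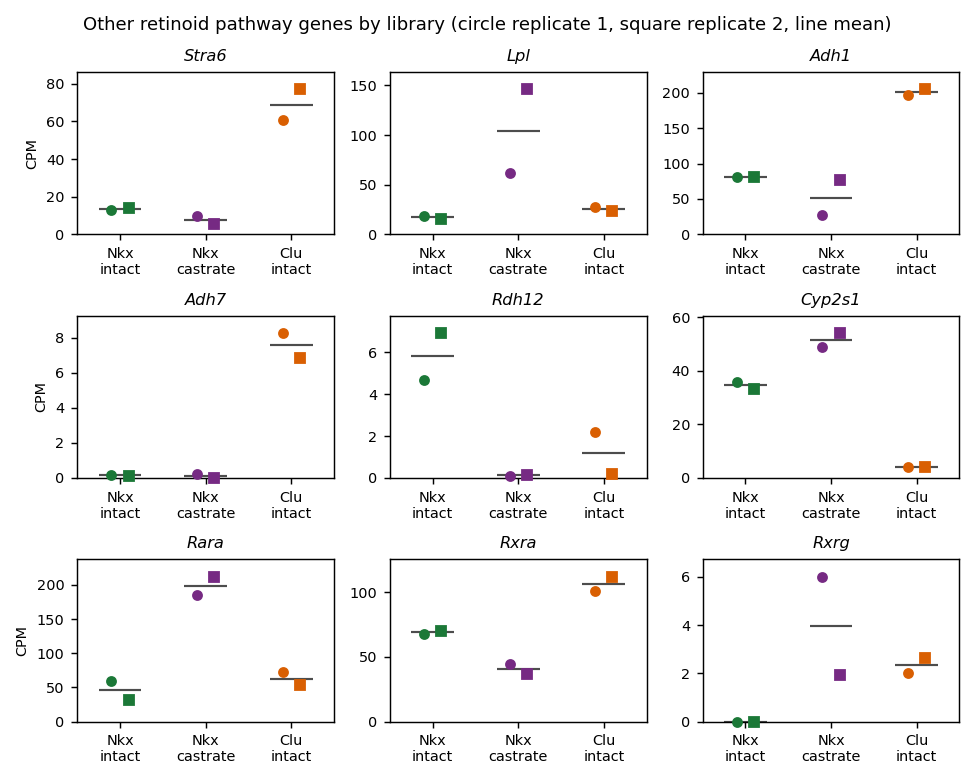
CPM (vertical axes, linear from 0, each gene on its own scale) of 9 other genes of the pathway in the 2 libraries of each group, with the group mean as a line. Stra6, Adh1, Adh7 and Rxra are highest in Clu intact, Rara and Lpl in Nkx castrate, and Cyp2s1 is lowest in Clu intact.

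The genes whose levels were most like those of the 3 most variable retinoid genes were ranked by Pearson's r of log2 CPM over the 6 libraries, among about 9030 genes with a mean of at least 10 CPM. With 6 points that share their libraries and depths, such values are a description. For Aldh1a1 they were Agr2, Papss2 and Slc35b1, each at r = 0.997. For Stra6l they included Mbd5 and Mapk12 (r = 0.995 and 0.994), and for Aldh1a2 Rptor, Cfap20 and Sfpq (r = 0.996, 0.990 and 0.989). Agr2 stood at 232 and 297 CPM in intact Nkx cells, 26.0 and 16.3 CPM in castrate Nkx cells, and 155 and 178 CPM in intact Clu cells. Mbd5 spanned 25.5 to 40.8 CPM over the 6 libraries, Rptor 49.4 to 78.4 CPM, Cfap20 38.6 to 56.3 CPM and Sfpq 327 to 501 CPM. These spans were far smaller in fold than those of Stra6l and Aldh1a2.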

How the data were processed

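The deposited file holds raw read counts per gene symbol, 1 column per library for 6 libraries. The authors made the counts with FastQC 0.11.9, STAR 2.7.9a and Subread 2.0.1 with featureCounts on build GRCm39, per the submitters' processing notes. Libraries were made from 2 ng of total RNA with a stranded low-input kit, per the labels' protocols. How strand, multi-mapping reads, read pairs and molecular identifiers were handled, and which annotation was used, is not stated in the labels, so reads of overlapping genes and close paralogs are uncertain.

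Genes were filtered with edgeR 4.0.16 in R 4.3.3 (filterByExpr on the 3 groups, 13846 of 24498 kept), scaled by TMM (factors 0.945 to 1.04) and fitted with glmQLFit, 1 mean per group over all 6 libraries (3 residual degrees of freedom). Tests were two-sided quasi-likelihood F tests with Benjamini-Hochberg adjustment over all tested genes. Fold changes are on the log2 scale, first-named group minus second, with an SE of the fold change divided by the root of F. CPM means carry the SD of 2 libraries. Levels per kilobase use the merged length of all annotated exons of a gene in GENCODE M21, an earlier build than that of the counts. Its symbols matched all 9 genes. The merged length can exceed that of the RNA present, so shares and ranks across genes depend on the annotation. The fit was also run on simulated counts, and the outcome is not given here.

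The 9 genes, the 57 pathway genes, the marker lists and the naming rule were chosen with earlier results of these data known. The rule names the 9 genes, the 10 called pathway genes with the largest fold change and a mean of at least 1 CPM, 8 fixed pathway genes, and the 3 genes most alike to each of the 3 most variable; 2 of the genes so named are not reported here. Adh7, Rdh12, Rxrg and Lrat rest on few counts. So do the low groups of Stra6l (10 counts in intact Nkx and 6 in intact Clu cells) and of Aldh1a2 (12 in intact Clu cells). Alternatives were RLE and upper-quartile scaling, no filter, a filter of 1 CPM in 4 libraries, DESeq2 1.42.0, a fit of only the 2 groups at hand, replicate number as a block, each library left out, and, chosen after seeing that low counts were mostly even, halved counts. Groups of 2 are too small for any rule on outlying libraries.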

Additional observations from a re-analysis of the deposited data

How the results depend on the processing

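The fall of Aldh1a1 with castration, its higher level in intact Clu cells than in castrate Nkx cells, and the higher Dhrs3 and lower Stra6l of intact Clu cells against castrate Nkx cells were called in every alternative that gave a value. Stra6l was removed by the filter of 1 CPM in 4 libraries, so no value was had there. Of 374 alternative values for the 9 genes, 338 kept direction and call, 9 lost a call, 18 gained one and 9 turned sign.

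All genes called, in the order castrate Nkx cells against intact Nkx cells, intact Clu cells against intact Nkx cells and intact Clu cells against castrate Nkx cells, numbered 1192, 1563 and 2342. Without a filter they were 2300, 2665 and 3518, with DESeq2 2015 and 2453 in the first and second, and with only the groups compared 671 and 3309. Leaving out each library gave 209 to 2412, 391 to 3351 and 687 to 3854. Of the 9 genes, the number higher with castration was 2 without a filter and with DESeq2, and 0 with the 1 CPM filter. In intact Clu cells against intact Nkx cells, 2 were higher without a filter, with DESeq2 and with only the groups compared, and 2 lower without a filter and with halved counts, 3 with DESeq2 and with only the groups compared. Against castrate Nkx cells, 1 was lower with the 1 CPM filter and with only the groups compared. Leaving out a library gave 0 to 2 higher with castration, 0 to 2 higher and 0 to 2 lower in intact Clu cells against intact Nkx cells, and 1 to 2 lower against castrate Nkx cells.

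Of the 57 pathway genes, with castration 8 were higher without a filter and 3 with only the groups compared, and 1 was lower with upper-quartile scaling and with only the groups compared, 6 without a filter and 5 with DESeq2. In intact Clu cells against intact Nkx cells, 3 were higher with the 1 CPM filter and 10 with only the groups compared. There 4 were lower with upper-quartile scaling, the 1 CPM filter and halved counts, 6 without a filter, 7 with DESeq2 and 8 with only the groups compared. Against castrate Nkx cells, 10 were higher without a filter. Leaving out a library gave 0 to 8 higher and 0 to 5 lower with castration, 0 to 8 and 1 to 8 in intact Clu cells against intact Nkx cells, and 2 to 9 and 1 to 9 against castrate Nkx cells.

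With the replicate number as a block, Aldh1a2 was added to the genes lower in intact Clu cells than in intact Nkx cells (2 in all), and the pathway genes called lower were 4 with castration and 6 in intact Clu cells against intact Nkx cells. All genes called with the block numbered 1511, 1964 and 2779, in the order given above. Same-numbered libraries deviated together at r = 0.09, 0.04 and 0.23 across genes in the 3 pairs of groups. The labels do not say whether such libraries are linked, so it is not known whether they share more than a number. The block also gave calls for Cyp26b1 against intact Nkx cells (edgeR adjusted p = 0.0208 with castration and 0.0404 in intact Clu cells).

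Sign changes, all of values not called in the fit used, fell on Cyp26b1 in intact Clu cells against castrate Nkx cells (-0.09 in the fit used, 0.55 with the replicate block, and -0.87 to 2.02 leaving out a library). Leaving out a library also turned Rdh10 (-0.16 to 0.22 with castration, -0.0872 to 0.31 in intact Clu cells against intact Nkx cells and -0.0056 to 0.18 against castrate Nkx cells), Dhrs3 (-0.18 to 0.0461), Rarb (-0.14 to 0.37), Crabp2 (-0.91 to 0.15), Adh7 (-3.83 to 0.58) and Meis2 (-0.0564 to 1.74) with castration, Stra6l in intact Clu cells against intact Nkx cells (-5.63 to 0.0734), and Aldh1a3 (-0.75 to 0.76) and Rxrg (-1.35 to 0.28) in intact Clu cells against castrate Nkx cells. The cause of these changes was not tested. Where 1 library was left in a group, it was taken to vary like the others. Few counts limit Crabp2, Rarb, Rdh12, Adh7, Rxrg and Lrat, and the fold sizes of Stra6l and of Aldh1a2 in intact Clu cells.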
